A study of Arabidopsis thaliana with 36 samples.

Results

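The comparison is of pseudouridine (Ψ) in mature dry seeds with Ψ in siliques of Arabidopsis thaliana, at every rRNA and tRNA site with a Ψ fraction in both tissues. All 186 listed rRNA sites and 344 of the 349 listed tRNA sites had both values, 530 of 535 sites in all. The other 5 tRNA sites lacked a seed value.

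Total RNA of wild-type Col-0 was profiled by BID-seq in 9 tissues, with 2 bisulfite-treated and 2 untreated input libraries of each tissue (36 libraries). In BID-seq, bisulfite forms an adduct with Ψ at which the reverse transcriptase skips a base, so that Ψ is read as a deletion, and a calibration converts the share of reads with the deletion into a Ψ fraction (the estimated proportion of modified molecules, from 0 to 1). All plants were of one genotype, and seedlings, shoots and roots came from plates, whereas the other tissues came after the move to soil. Siliques, the fruits of Arabidopsis, were taken from soil-grown plants after flowering, and seeds were harvested when ripe and dry, so the silique material holds seeds at unstated stages together with the fruit wall. The remaining 7 tissues (flower, stem, cauline leaf, rosetta leaf, shoot, seedling and root) serve here as a frame for the seed and silique values. The tables hold rRNA and tRNA sites alone, so no marker gene could be used to check the tissue labels.

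Each Ψ fraction is 1 value per site and tissue, which the authors pooled over both treated replicates, with a flag that says whether the site passed their filter in that tissue. The differences below come with neither a spread between replicates nor a depth, so none could be tested, and a difference of at least 0.1 is a description, not a call. A value of exactly 0 can be a failed estimate and is written as listed at 0. A fraction is an average over all cells of a tissue, so fewer cells with Ψ and less Ψ in each cell cannot be told apart.

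In a Ψ the base is joined to the sugar through carbon instead of nitrogen. In rRNA encoded in the nucleus, guide RNAs of the H/ACA class lead one synthase to its sites, whereas in organelle rRNA and in tRNA stand-alone synthases each serve a few positions. In yeast tRNA, Pus1 acts at positions 27 and 28, Pus3 at 38 and 39, Pus7 at 13 and Pus4 at 55 of the T loop, and such marks are known for their part in the folding and stability of rRNA and tRNA.

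The sequences around the rRNA sites that were most raised in seed over silique are shown first, for the values given further on. Each has 10 bases on either side of the site, the T read as Ψ is in capitals, and the bases are those of RefSeq TAIR10.1.
5.8S position 85: aattgcagaaTcccgtgaacc
18S position 233: acgcgggctcTgcccgttgct
25S position 1249: aggacggtggTcatggaagtc
18S position 679: tggtgtgcatTggtcggcttg
25S position 482: ggtccgccgaTcgattcgggg
Pt-4.5S position 31: ccgtttatcaTtacgataggt
18S position 1065: atgttgcttaTaggactccgc
18S position 1179: gagtggagccTgcggcttaat
Nuclear sites were placed on chromosome 2, in the 18S gene AT2G01010 (chr2:3706-5513, plus strand), in the 5.8S gene AT2G01020 (chr2:5782-5945) and in the 25S, which is not annotated there and was taken to start at base 6134. Pt marks the chloroplast, and its 4.5S gene spans bases 107599 to 107701 of the plus strand. The nuclear positions fitted a second copy of the locus, on chromosome 3, just as well, and reads of one copy cannot be told from those of the other.

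The next set is a stretch of the large-subunit rRNA that all 3 genomes of the plant encode, shown because 7 of the 13 rRNA sites at least 0.1 lower in seed lay in it. Capitals mark every listed Ψ site, and the middle pair of them, with 1 base between, is at positions 2259 and 2261 of the 25S, 2226 and 2228 of the mitochondrial 26S and 1930 and 1932 of the chloroplast 23S.
Nuclear 25S: ggtgggagTaacTaTgacTcTcttaaggt
Mitochondrial 26S: ggcggcagTaacTcTaacTgtcctaaggt
Chloroplast 23S: ggcggccgTaacTaTaacggtcctaaggt
They lie at chr2:8380-8408 (plus strand), at bases 141724 to 141752 of the mitochondrial genome (minus strand) and at bases 106608 to 106636 of the chloroplast genome (plus strand). In Escherichia coli the matching sites are made by the synthase RluD, in a hairpin that touches the small subunit. The mitochondrial assembly of TAIR10.1 differs from that of TAIR10, which the authors used, so mitochondrial coordinates are approximate.

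Across rRNA, seed lay slightly above silique. The median Ψ fraction over the 186 sites was 0.560 in seed and 0.534 in silique, and the median of the differences was 0.013. Seed was the higher of both at 117 sites, the lower at 61 and equal at 8. It exceeded silique by at least 0.1 at 38 sites (20.4% of those compared) and fell short of it by as much at 13 (6.99%). Pearson's r across sites was 0.881, where sites share libraries and are not independent.

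In tRNA the direction was the opposite. The medians over 344 sites were 0.829 in seed and 0.874 in silique, with a median difference of -0.024. Seed was lower at 228 sites, higher at 101 and equal at 15. It lay at least 0.1 below silique at 89 sites (25.9%) and at least 0.1 above it at 26 (7.56%), and r across sites was 0.798. Of the 89 lower tRNA sites, 36 were listed at 0 in seed.

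**Figure D1:**
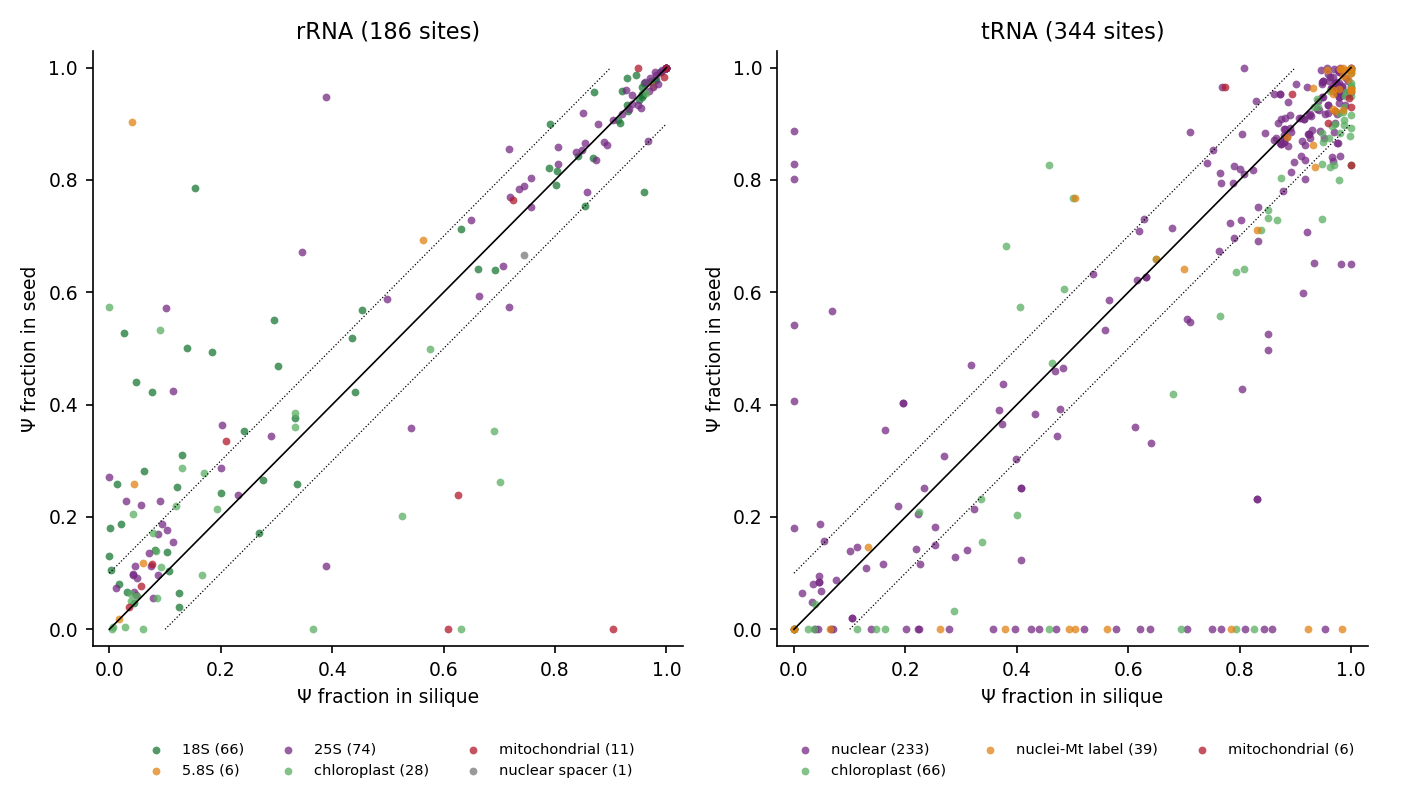
Ψ fraction in seed (y axis) against silique (x axis) at 186 rRNA and 344 tRNA sites, 1 point per site, coloured by RNA class or by the genome label of the tRNA. The solid line marks equal values and the dotted lines a difference of 0.1; rRNA points lie mainly above the upper dotted line where they stray, and tRNA points mainly below the lower one, many of them at 0 in seed.

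Differences are next given by the level of a site in the rest of the plant. Sites near 0 can hardly be lower in seed and sites near 1 hardly higher, and 31 of the 186 rRNA sites passed in none of the other 7 tissues, so that a low level elsewhere was tied to how the sites were listed and nothing is read from the split. At the 58 rRNA sites whose median over the other 7 tissues was below 0.1, the median was 0.117 in seed and 0.053 in silique, and 22 sites were at least 0.1 higher in seed against 3 lower. At the 51 sites with a median of at least 0.9 elsewhere, seed and silique medians were 0.968 and 0.963, with 1 site higher by 0.1 and none lower. All 51 passed in both tissues, and at this level there was little room for a rise. In tRNA, of the 30 sites with a median below 0.1 elsewhere, 7 were at least 0.1 lower in seed and 6 higher. At the 58 sites from 0.1 to 0.5, 26 were lower and 7 higher, with a median difference of -0.0705. At the 92 sites with a median of 0.5 to 0.9 elsewhere, 34 were at least 0.1 lower in seed and 11 higher, with a median difference of -0.043, and at the 164 sites at 0.9 or above, 22 were lower and 2 higher, with -0.0175.

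The authors' flags divided the sites further. In rRNA, 113 sites passed in both tissues, 35 in seed alone, 19 in silique alone and 19 in neither. A site that passed in 1 of both tissues had to be high there, so no direction is read from such sites. In tRNA, 208 sites passed in both, 8 in seed alone, 76 in silique alone and 52 in neither. Among sites passed in both, the differences were small, with a median of 0.005 in rRNA and -0.013 in tRNA. There, 13 rRNA sites were at least 0.1 higher and 2 lower in seed, and 10 tRNA sites were higher and 29 lower.

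Within nuclear rRNA, 32 of 147 sites were at least 0.1 higher in seed, and they are given here by RNA. In the 18S rRNA of the small subunit, 19 of 66 sites were at least 0.1 higher in seed and 2 lower. In the 5.8S, 3 of 6 were higher and none lower, and in the 25S of the large subunit, 10 of 74 were higher and 3 lower. Among sites passed in both tissues, 7 of 45 were higher in the 18S, 1 of 3 in the 5.8S and 3 of 55 in the 25S, with 0, 0 and 2 lower. The median differences over all sites were 0.0135 in the 18S, 0.0935 in the 5.8S and 0.0135 in the 25S. Whether the RNAs differ was not tested. The single site upstream of the 18S, listed at position 1833 of the locus, had 0.667 in seed and 0.745 in silique.

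**Figure D2:**
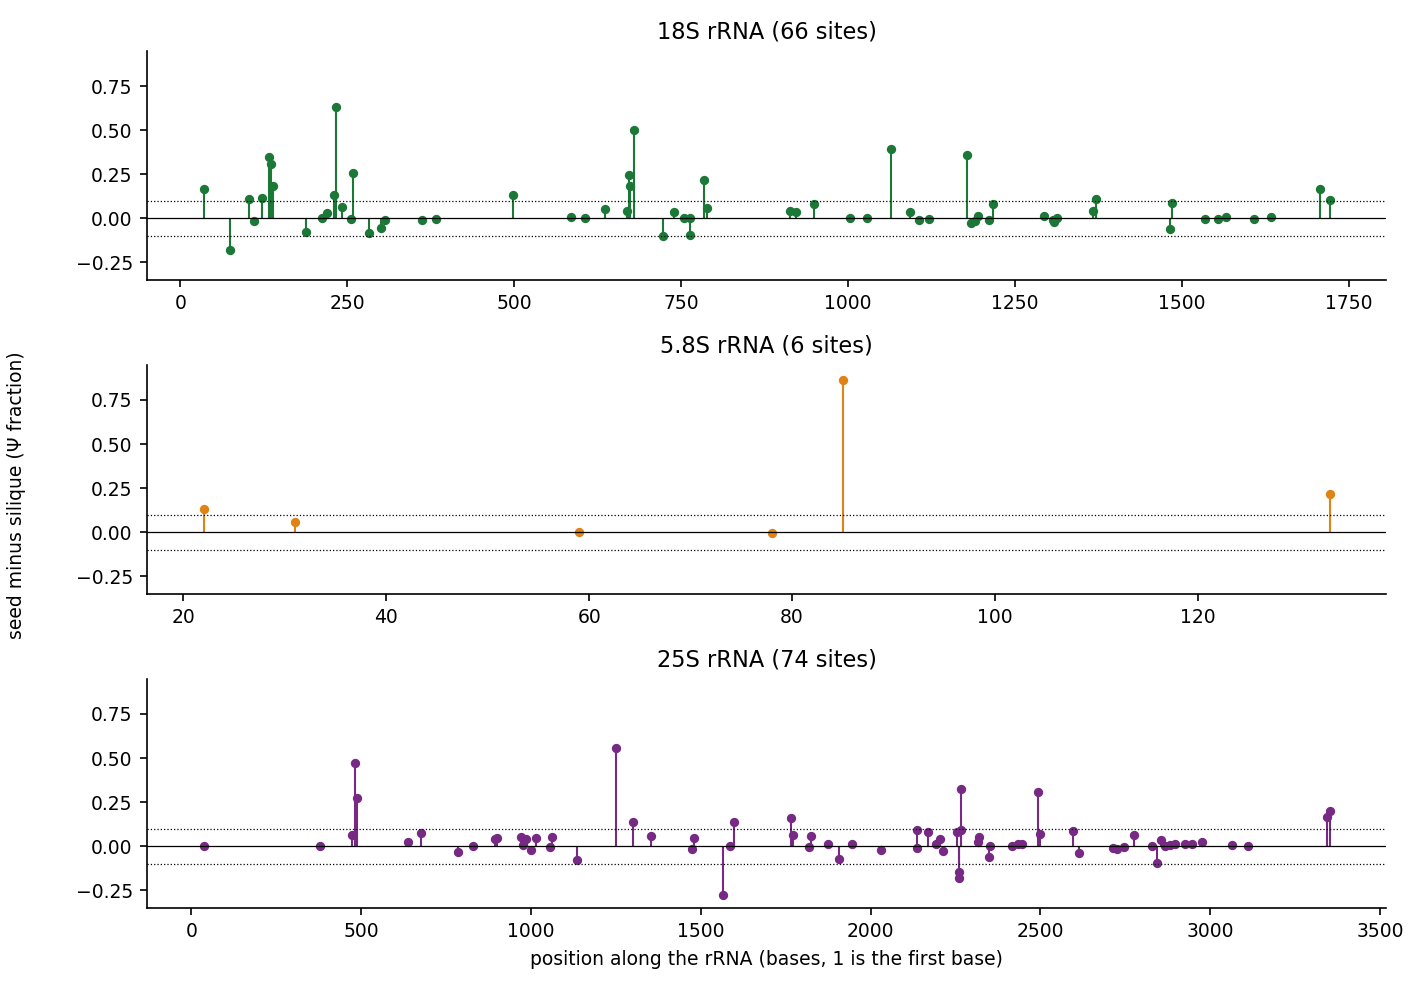
Seed minus silique Ψ fraction (y axis) at each listed site along the 18S, 5.8S and 25S rRNA (x axis, bases from the first base of the rRNA), 1 line and point per site, with dotted lines at 0.1 above and below 0. Higher sites stand in small groups in the 18S, near positions 133 to 139, 231 to 233 and 672 to 679.

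The largest difference in rRNA was at position 85 of the 5.8S (chromosome 2, base 5866), with 0.904 in seed and 0.040 in silique, and the site was listed at 0 in the other 7 tissues. A second 5.8S site, position 133, had 0.259 in seed, 0.044 in silique and at most 0.020 elsewhere. Both sites passed in seed alone. By contrast, position 78 of the 5.8S had 0.968 in seed and 0.975 in silique, so the 2 high values of seed at positions 85 and 133 stood beside a near-saturated site with almost no difference.

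In the 18S, position 233 had 0.785 in seed, 0.153 in silique and at most 0.072 elsewhere, and its neighbour at position 231 had 0.130 in seed and was listed at 0 in silique. Silique was here the second highest of the 9 tissues at position 233, far below seed. Positions 133, 136 and 139 had 0.423, 0.494 and 0.311 in seed and 0.076, 0.184 and 0.131 in silique, and at most 0.098 elsewhere. Positions 672, 674 and 679 had 0.258, 0.181 and 0.528 in seed, against 0.013, 0.001 and 0.026 in silique and at most 0.056 elsewhere. At these 8 sites in 3 short stretches seed stood above all other tissues. All passed in seed, only position 139 passed in silique, and none passed in any remaining tissue. They were thus listed through seed, which favours this pattern, and nothing is read from it. Position 669, in the last stretch, had 0.377 in seed, 0.334 in silique and at most 0.288 elsewhere. Position 1065 had 0.441 in seed, 0.047 in silique and at most 0.019 in the rest, and also passed in seed alone. Position 1179 differed from these, since its 0.50 in seed and 0.140 in silique lay within the range of the other tissues, which reached 0.665 in shoot.

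In the 25S, position 482 had 0.572 in seed and 0.102 in silique, with 0.076 to 0.135 in the other tissues, and the nearby position 487 had 0.272 in seed and was listed at 0 in silique. Both passed in seed alone. Position 1249 had 0.947 in seed and 0.389 in silique. In this case silique was the tissue that stood apart, since the other 7 lay between 0.656 and 0.984. In the chloroplast 4.5S rRNA, positions 31 and 32, adjoining T bases at which a deletion cannot be assigned to one of them, had 0.533 and 0.288 in seed and 0.091 and 0.130 in silique.

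Some sites in nuclear rRNA that were higher in seed stood close together. Of the 32 nuclear sites at least 0.1 higher in seed, 13 had another such site within 10 bases, against 29 of all 147 nuclear sites, and 23 had any listed site that near, against 76 of the 147. Over the 21 bases shown, their median GC content was 57.1%, against 47.6% for the other 115 nuclear sites and 47.6% for all 1191 T bases of the 3 RNAs up to the last listed site. A T followed the site at 1 of the 32 and at 27 of the 115 (25.9% of all T bases). GC content and a following T did not set apart the seed-high sites once level was matched, and closeness was not compared at matched level. Among nuclear sites with a median below 0.1 in the other 7 tissues, the 19 that were higher in seed and the 19 that were not had the same median GC content of 57.1%, and a T followed none of either group.

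The levels of the seed-high rRNA sites in the rest of the plant are a description, since the sites were chosen for their seed value. Of the 38 sites, 36 passed in seed, 13 passed in silique and 23 passed in none of the other 7 tissues. Seed was above all of the other 7 at 29 of them, which the choice of the sites favours. The median over the 38 was 0.393 in seed, 0.108 in silique and 0.0425 for the median of the other 7.

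Sites can also be chosen without silique. Seed lay at least 0.1 above the middle value of the 7 remaining tissues at 41 rRNA sites, and there silique was displaced the same way at 32, the opposite way at 8 and not at all at 1, while over all 186 rRNA sites silique was above that middle value at 84, below it at 88 and equal at 14. Where the middle value is at or near 0, silique can hardly lie below it, and the 186 sites were not matched for level. No direction is therefore read from these counts. The median displacement was 0.047 in silique against 0.264 in seed. Silique was the highest of the 8 tissues other than seed at 18 of the 41 sites (26 of all 186), followed by flower at 7, shoot and seedling at 5 each, root at 3, and stem and cauline leaf at 1 each. The seeds inside the siliques were not measured apart from the fruit wall, so their share in these values was not tested. At the 9 rRNA sites with seed at least 0.1 below the middle value, silique was displaced the same way at 4 and the opposite way at 5, and was the lowest of the 8 at none. At the 24 tRNA sites with seed above it, silique went the same way at 10 and the opposite way at 11, and was the highest at 3. At the 96 tRNA sites with seed below it, silique went the same way at 61 and the opposite way at 32, against 185 below and 132 above over the 343 sites with all 9 values, and it was the lowest at 13, where root was at 59.

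**Figure D3:**
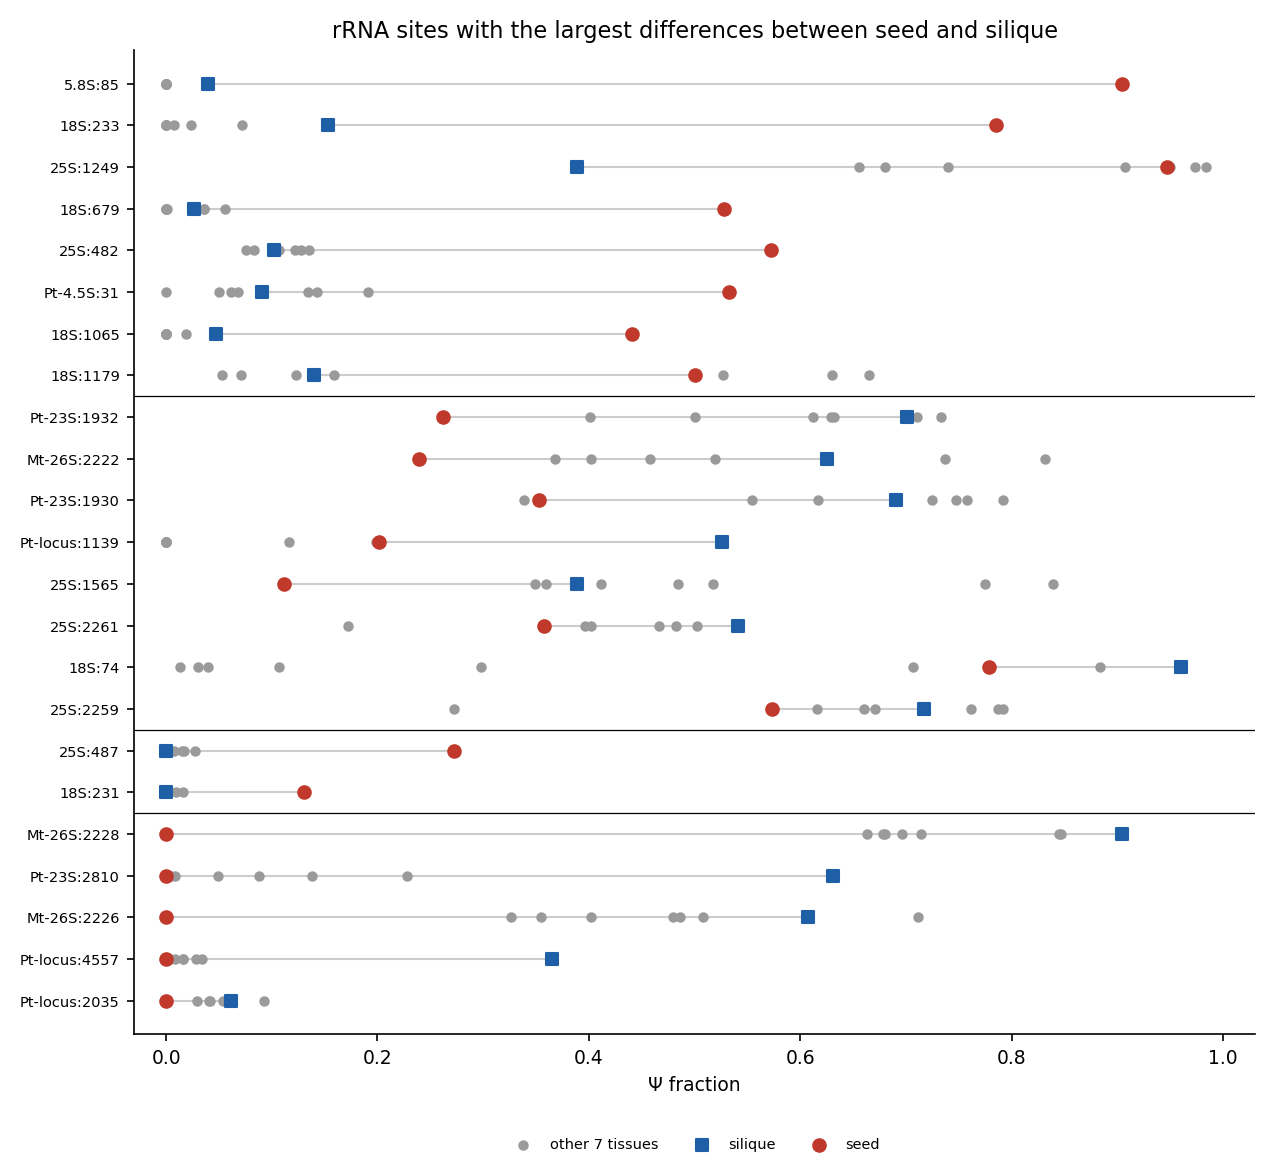
Ψ fraction (x axis) of the rRNA sites with the largest differences, 1 row per site, for seed (red circles), silique (blue squares) and the other 7 tissues (grey points). From the top, the blocks hold sites higher in seed, sites lower in seed, sites listed at 0 in silique and sites listed at 0 in seed; in the first block seed stands alone at most sites, while at 25S position 1249 silique does.

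The sites lower in seed lay mostly in organelle rRNA. Of the 13 sites, 5 were chloroplast, 3 mitochondrial and 5 nuclear. All 13 passed in silique, and 2 passed in seed. Of the 28 chloroplast sites, 5 were higher and 5 lower by 0.1, and of the 11 mitochondrial sites, 1 was higher and 3 lower.

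The stretch shared by the 3 genomes held 7 of these 13 sites. It was shown for that reason, so the count is not a result, and its remaining listed sites were all higher in seed. In the nuclear 25S, position 2259 had 0.573 in seed and 0.717 in silique, and position 2261 had 0.358 and 0.541. At the matching mitochondrial positions, 2226 and 2228 of the 26S, silique had 0.607 and 0.904, and seed was listed at 0 at both. At the matching chloroplast positions, 1930 and 1932 of the 23S, seed had 0.353 and 0.262 and silique 0.691 and 0.701. The middle pair of sites was therefore lower in seed in each genome, by 0.144 and 0.183 in the nuclear, 0.338 and 0.439 in the chloroplast, and most in the mitochondrial rRNA, where it rests on values listed at 0. Seed was below all of the other 7 tissues at both mitochondrial positions and at chloroplast position 1932, and within their range at the other 3. Of these 6 sites, only the nuclear pair passed in seed.

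The first site of the stretch did not share the direction. It had 0.729 in seed and 0.649 in silique in the 25S and 0.279 and 0.169 in the chloroplast, but 0.239 and 0.625 in mitochondria. At the last matching site, position 2265 of the 25S had 0.671 in seed and 0.345 in silique, and mitochondrial position 2232 had 0.765 and 0.724. Position 2267, listed in the 25S alone, had 0.188 in seed and 0.095 in silique. The matching of these sites was made after their values were seen.

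Of the 6 other sites lower in seed, 3 were in the chloroplast and 3 in nuclear rRNA. Position 2810, the last base of the annotated 23S, was listed at 0 in seed and had 0.631 in silique and at most 0.228 elsewhere. Position 4557 of the locus, between the 23S and 4.5S genes, was listed at 0 in seed and had 0.365 in silique. Position 1139, which could not be placed with confidence, had 0.201 in seed, 0.526 in silique and at most 0.199 elsewhere. At all 3 it was silique that stood above the rest of the plant. In the nuclear 25S, position 1565 had 0.112 in seed and 0.389 in silique, and here seed was below all other tissues, the lowest of which had 0.349. Position 74 of the 18S had 0.779 in seed and 0.960 in silique, and position 723 had 0.753 and 0.853, and both passed in silique but not in seed. At both, seed lay far above the median of the remaining tissues, 0.107 and 0.143. Flower (0.884 and 0.765) and root (0.707 and 0.630) were high there too.

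The 4 sites that the study names in its text differed by less than 0.05. The 18S site at base 4618 of chromosome 2 had 0.243 in seed and 0.20 in silique, where silique was the lowest of all tissues, and that at base 4900 had 0.816 and 0.803. The chloroplast 23S site at base 107313 had 0.954 and 0.963, and position 2903 of the mitochondrial 26S had 0.983 and 0.996. The mitochondrial site is numbered otherwise in the study and was identified here by its sequence, as the listed mitochondrial site with the same 10 bases before the T as the chloroplast one. All 4 passed in both tissues.

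For tRNA, the sequences that carry the largest seed-high values are shown with the Ψ site in capitals.
Gln-CTG-1 position 20: gtctagcggtTaggacactag
Gln-CTG-3 position 20: gtctagcggtTaggacattgg
Gly-TCC-1 position 19: agtccaacggTtaggataatt
Val-TAC-2 position 71: ctgggcagaaTca
Gln-CTG-1 matched the gene AT1G01270 (chr1:111890-111961, minus strand) and Val-TAC-2 the gene AT4G16235 (chr4:9191576-9191648, plus strand), while Gln-CTG-3 matched 4 annotated genes and Gly-TCC-1 matched 12, all with the sequence shown. The first 3 windows share a stretch of 9 bases in the D loop, cggttagga, with the site at base 5 of it in both Gln tRNAs and at base 4 in Gly-TCC-1. The stretch is in 27 of the 684 annotated tRNA genes (3.95%), and these 3 sites were the only listed sites that fell in it in a matched tRNA. It was derived from these same sites, which were chosen as high in seed, so nothing is read from it. Adjoining T bases in it cannot be told apart by a deletion.

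Position 20 of Gln-CTG-1 had 0.887 in seed and was listed at 0 in silique, and position 20 of Gln-CTG-3 had 0.829 and was also listed at 0 in silique. In the other 7 tissues these sites reached at most 0.082 and 0.064. Position 19 of Gly-TCC-1 had 0.567 in seed and 0.069 in silique, against 0.044 to 0.144 elsewhere. Position 71 of Val-TAC-2 had 0.801 in seed and was listed at 0 in silique, and the highest of the remaining values was 0.387, in root. All 4 passed in seed and not in silique, and seed stood above every other tissue at each, which the choice of the sites favours.

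tRNA names count positions along each tRNA, so the same structural place carries different numbers. Sites were therefore also aligned on the anticodon (positions 34 to 36) and on the conserved T loop site (position 55) of the matched genes, a numbering added after the values were seen. It covered 324 of the 344 sites, and tRNA positions are given in it from here on unless the listed number is stated.

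Position 27, at the foot of the anticodon stem and a Pus1 position in yeast, had the largest median difference among positions with at least 10 sites. Its 37 sites had a median of 0.155 in seed and 0.471 in silique, and the median of the other 7 tissues was 0.615. Of the 37 sites, 23 were at least 0.1 lower in seed and 2 higher, against 25.9% and 7.56% over all tRNA sites. Seed was listed at 0 at 12 of them. The 37 include the sites of the initiator tRNA, whose placement at position 27 is uncertain. All of these passed in both tissues and were at least 0.1 lower in seed, so they are in every set given here. No count was made without them. At the 25 sites with neither value at 0, the medians were 0.682 and 0.832, with 13 lower and 2 higher, and at the 12 sites passed in both they were 0.6965 and 0.844, with 7 lower and 1 higher. The next position, 28, gave another picture over 12 sites, with medians of 0.827 in seed and 0.824 in silique, 3 sites lower and 4 higher. The contrast of positions 27 and 28 depends in part on where the initiator sites belong.

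The sequences at position 27 are shown for the gene matched to the initiator names, an uncertain match, and for the Trp tRNA. Both tRNAs are described next.
Met-i-CAT position 27: ggttagagtaTcgctttcata
Trp-CCA position 27: tggtagcgcgTctgactccag
The initiator tRNA, which starts translation, was listed under 3 names, whose sites may share reads. All 3 matched only the gene AT2G07755 (chr2:3328670-3328742, minus strand). The search required a T before the anticodon, so genes without one were left out. Whether this gene encodes the initiator was not tested, so the sequence shown and the aligned position 27 are uncertain. Under this match the T loop sites of these names, at listed position 54, fall at aligned position 54 and not at the conserved position 55. The aligned position 27 may therefore be misplaced as well. At listed position 27 the 3 initiator names had 0.526, 0.802 and 0.497 in seed and 0.850, 0.917 and 0.851 in silique. Seed was below silique, and below all of the other 7 tissues, under each name, and all 3 passed in both tissues. In the T loop of the same tRNA, at listed position 54, 2 of the names had 0.710 and 0.714 in seed and 0.619 and 0.678 in silique, so the 2 sites of one tRNA went in opposite directions. Over all Met tRNAs, 14 of 23 sites were at least 0.1 lower in seed and none higher, with medians of 0.641 and 0.825. Over all tRNA sites the shares were 25.9% lower and 7.56% higher. Seed was listed at 0 at 7 of the 23 Met sites, and 9 passed in seed. The 23 include the 5 initiator sites.

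The nuclear Trp tRNA, with 13 matching genes, was listed under 2 names with nearly the same values. At position 27 it was listed at 0 in seed under both names and had 0.578 and 0.521 in silique. At listed position 70, in the acceptor stem, it had 0.232 in seed and 0.832 in silique under both names, the lowest seed value against silique among sites with neither value at 0. At listed position 64 it had 0.403 in seed and 0.195 in silique, and 0.178 to 0.267 elsewhere. The T loop site at listed position 54 had 0.934 in seed and 0.958 in silique. Thus 1 tRNA held a site with a large shortfall, a site with an excess and a site with almost no difference between the tissues.

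By listed positions, with Leu, Ser and Tyr tRNAs left out, the windows of the tRNA gave 18 lower and 5 higher sites of 40 in the 5′ strand of the anticodon stem, 17 and 5 of 44 in the anticodon loop, 10 and 5 of 33 in the D arm and 11 and 1 of 91 in the T loop. The window at position 26 had 7 lower and 0 higher of 10 sites, with a median difference of -0.1645, and 9 of these 10 sites are at position 27 in the aligned numbering. For the 14 sites of the T stem window the median was -0.0055.

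**Figure D4:**
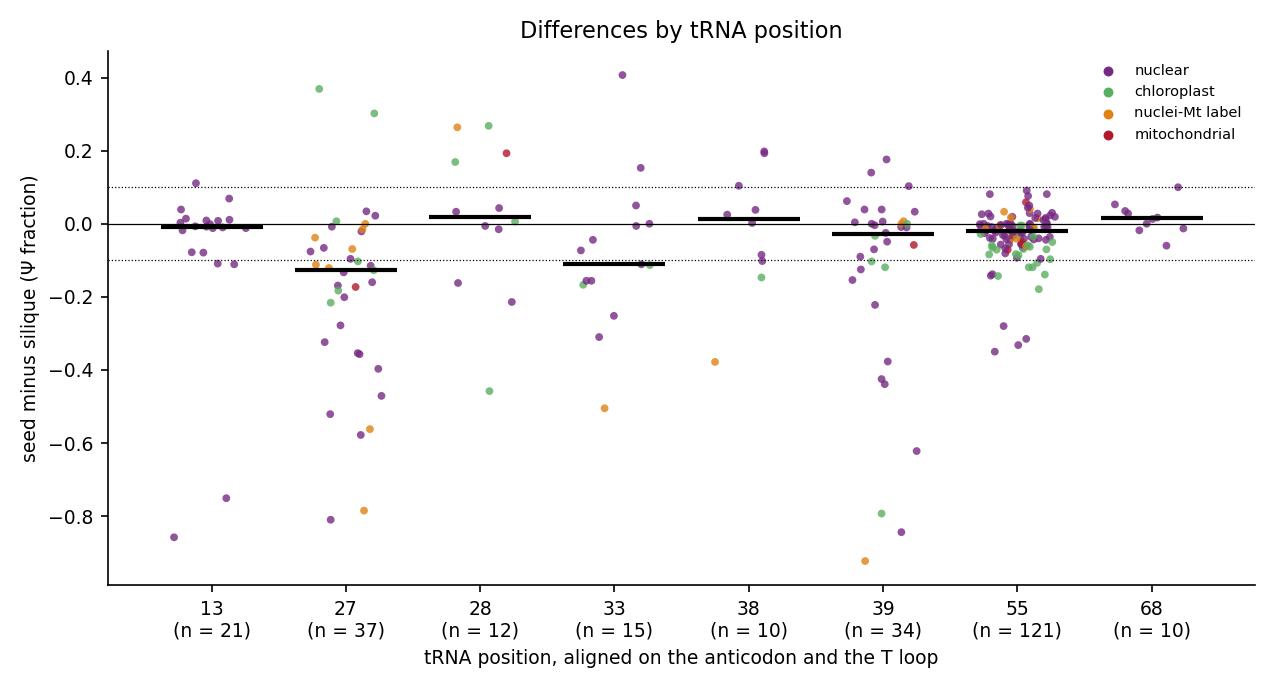
Seed minus silique Ψ fraction (y axis) by aligned tRNA position (x axis) for the positions with at least 10 sites, 1 point per site coloured by genome label, black bars for medians and dotted lines at 0.1 above and below 0. Positions 27 and 33 have medians below -0.1, while those of 13, 28, 38, 55 and 68 lie near 0.

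The other positions of the anticodon arm differed among themselves. Position 39, a Pus3 position in yeast, had 34 sites with medians of 0.448 in seed and 0.708 in silique, 12 lower and 3 higher, but at the 24 sites with neither value at 0 the medians were 0.7315 and 0.7755, with 5 lower and 3 higher. Position 38 had 10 sites, 3 lower and 3 higher. Position 33, next to the anticodon, had 15 sites with medians of 0.251 and 0.407, 8 of them lower and 2 higher. At its 11 sites with neither value at 0 the medians were 0.331 and 0.407, with 6 lower and 1 higher. At the 5 passed in both they were 0.36 and 0.612, with 3 lower and none higher. Single sites of the arm differed more. Position 39 of Ser-AGA-1-b had 0.428 in seed and 0.805 in silique, and both lay below the other 7 tissues, the lowest of which had 0.838. Listed position 34 of Thr-AGT-1, which is aligned position 33, had 0.331 and 0.641, with seed within and silique above the range of the others. In the D arm, position 13, a Pus7 position in yeast, had 21 sites with medians of 0.872 and 0.880, 4 lower and 1 higher. Near the end of the acceptor stem, position 68 had 10 sites with medians of 0.839 and 0.7865, none lower and 1 higher.

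The T loop site at position 55, which Pus4 makes in yeast and TruB in bacteria, was high in both tissues. Over 121 sites the median was 0.946 in seed and 0.966 in silique, and 12 sites were at least 0.1 lower in seed and none higher. The counts are given by genome. In the 26 chloroplast tRNAs the medians were 0.908 in seed and 0.9785 in silique, seed was lower in all 26, by 0.003 to 0.179, and 6 were lower by at least 0.1. In the 79 nuclear tRNA names the medians were 0.948 and 0.958, seed was lower in 54 and higher in 21, and 6 were lower by at least 0.1. The difference between the genomes could not be tested.

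Chloroplast T loop values in silique were like those of flower, shoot and rosetta leaf. Their medians were 0.9825 in flower, 0.983 in shoot and 0.987 in rosetta leaf, and the seed median of 0.908 lay below these and above the 0.8505 of root. Root was also low at position 55 of nuclear tRNA, with a median of 0.805 against 0.948 in seed, so its low value was not particular to the chloroplast. The lowest seed value was 0.80 in Met-CAT-7, which had 0.979 in silique. His-GTG-3 had 0.893 and 1, and Gly-GCC-5 had 0.879 and 0.998. At 25 of the 26 sites both tissues passed, and there the medians were 0.916 and 0.979.

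The largest T loop differences were in nuclear tRNA, in 4 names for which seed was lower by 0.28 or more. Their T loops and that of chloroplast Met-CAT-7 are shown where the matched genes shared a sequence, with the site in capitals.
Ala-TGC-2 position 55: ggcacggggtTcgatcccccg
Arg-CCG-3 position 55: ggtcgtgggtTcgattcccac
Met-CAT-7 position 55, chloroplast: ggtcacgggtTcaaatcctgt Ala-TGC-1 had 0.653 in seed and 0.933 in silique, Ala-TGC-2 had 0.598 and 0.913, Arg-CCG-3 had 0.65 and 0.982, and Tyr-GTA-4 had 0.65 and 1. Both Ala-TGC sites passed in both tissues, Arg-CCG-3 in silique alone and Tyr-GTA-4 in neither. At position 38 the same Ala-TGC-2 had 0.966 in seed and 0.768 in silique, the reverse of its T loop.

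Sites of the same tRNA are covered by overlapping reads, so they were also compared within tRNA names. In the 31 names with a site at both positions, the difference at position 27 was below that at position 55 in 24 and above it in 7, with medians of -0.127 and -0.024. Position 27 was chosen for its large difference, and seed was listed at 0 at 12 of its 37 sites. Position 55 had no value at 0 in seed or silique. Its median in the other 7 tissues was 0.967, against 0.615 at position 27, so a larger fall at position 27 is favoured. For positions 33 and 55, in 13 names, the medians were -0.113 and -0.008, with position 33 below in 9 and above in 4. For positions 39 and 55, in 33 names, they were -0.033 and -0.018, with position 39 below in 19 and above in 14. For positions 13 and 55, in 18 names, the medians were -0.0075 and -0.0095. Position 68 was above position 55 in 8 of 10 names, with medians of 0.015 and -0.0085.

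The tRNA sites were also compared by genome label. Of 66 chloroplast sites, 27 were at least 0.1 lower in seed and 5 higher, with a median difference of -0.0765 and a mean of -0.0977, and of 233 nuclear sites, 51 were lower and 19 higher, with a median of -0.012 and a mean of -0.0569. Of 39 sites labelled nuclei-Mt, whose meaning was not given, 10 were lower and 1 higher, with a median of -0.016 and a mean of -0.1344, so the order of the labels differs between median and mean. Of 6 mitochondrial sites, 1 was lower and 1 higher. On the high side, listed position 27 of chloroplast Thr-TGT-2 had 0.827 in seed and 0.458 in silique, listed position 28 of chloroplast Ser-GGA-1 had 0.682 and 0.380, and listed position 27 of chloroplast Asn-GTT-4 had 0.768 and 0.50. Thr-TGT-2 and Ser-GGA-1 are the 2 sites at aligned position 27 that were at least 0.1 higher in seed, and Asn-GTT-4 is at aligned position 28. Thr-TGT-2 passed in silique but not in seed. The name Asn-GTT-4 labelled nuclei-Mt had nearly the same values at listed position 27, 0.768 and 0.504. These 2 names may share reads, so the Asn site cannot be assigned to the chloroplast.

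**Figure D5:**
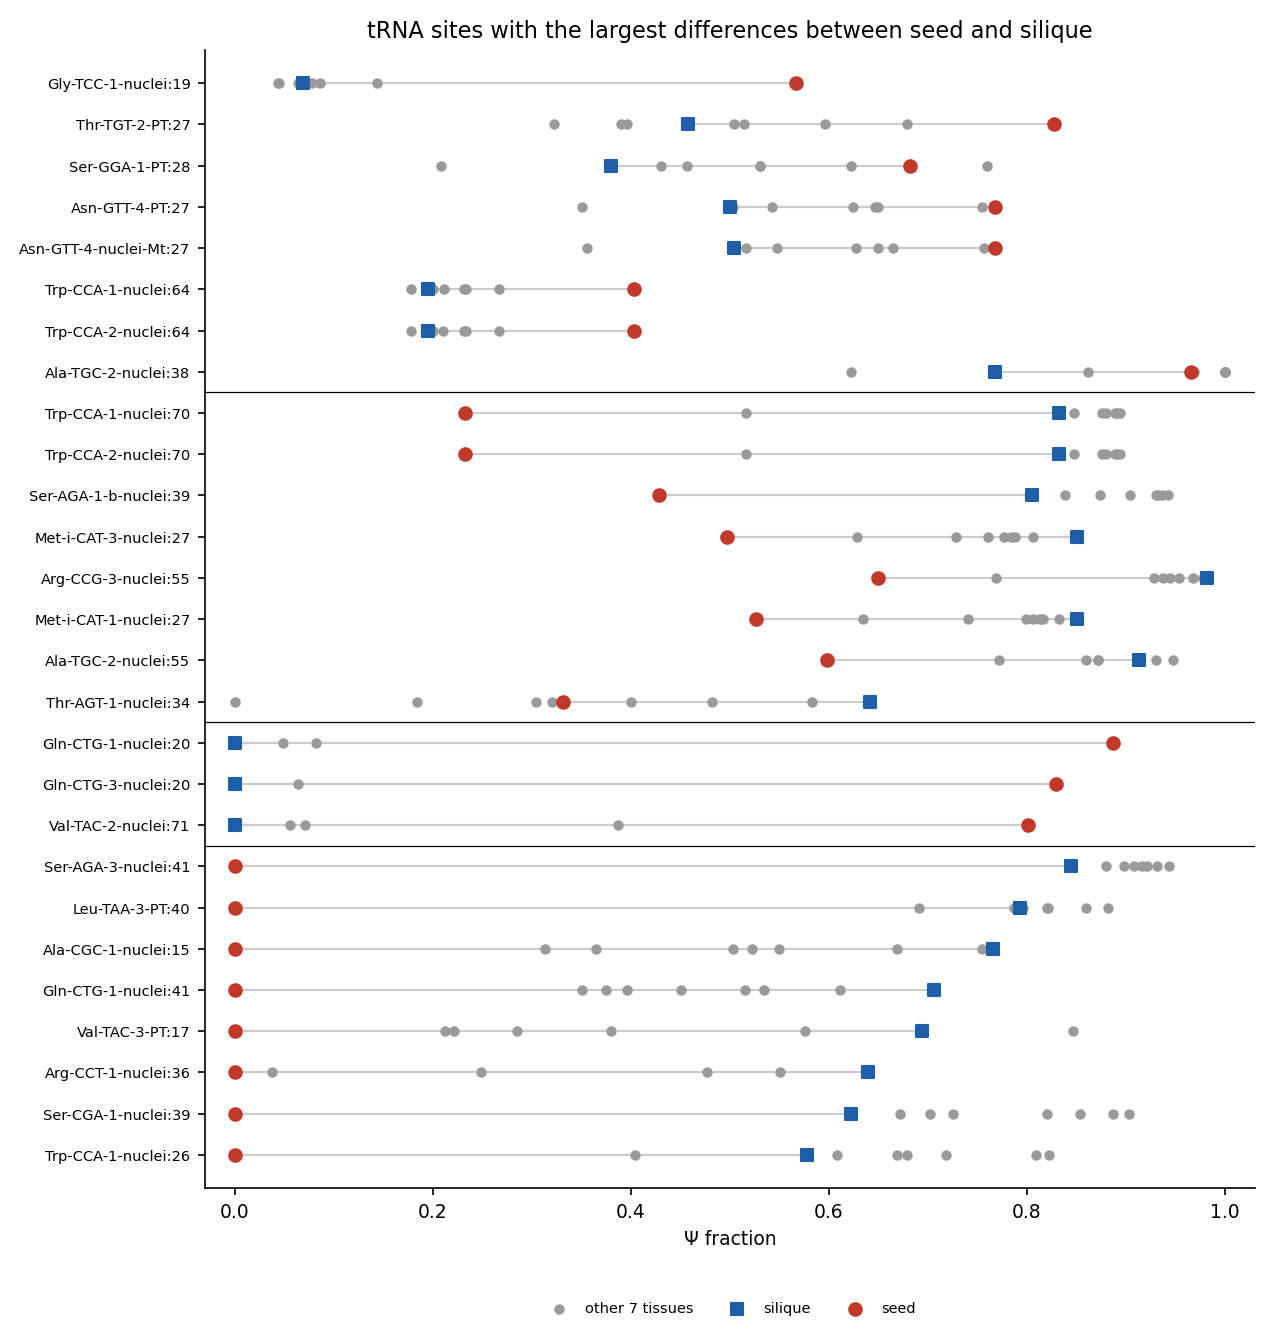
Ψ fraction (x axis) of the tRNA sites with the largest differences, 1 row per site at its listed position, for seed (red circles), silique (blue squares) and the other 7 tissues (grey points), in the same 4 blocks as for rRNA. In the second block seed lies below silique and mostly below the other tissues, and in the last block it is listed at 0.

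Values of 0 were far more frequent in seed tRNA than in silique tRNA. Seed was listed at 0 and silique above 0 at 43 tRNA sites, silique at 0 and seed above 0 at 6, and both at 0 at 7. None of the values at 0 passed. At 18 of the 43 sites silique passed, and the highest of these were 0.844 at listed position 41 of Ser-AGA-3, 0.793 at listed position 40 of chloroplast Leu-TAA-3, 0.766 at listed position 15 of Ala-CGC-1 and 0.706 at listed position 41 of Gln-CTG-1. At 27 of the 43 sites every one of the other 7 tissues was above 0. The 43 sites lay in 40 tRNA names, of which 33 had another site that passed in seed. The other sites of these names with a seed value above 0 numbered 80, with medians of 0.880 in seed and 0.948 in silique. The reads behind these values were not used here, so whether the 0 values reflect depth was not tested. In rRNA, seed alone was listed at 0 at 6 sites, all in organelle rRNA, and silique alone at 3.

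Among the 36 pairs of tissues, seed and silique ranked 11 in rRNA and 15 in tRNA by the number of sites that differed by at least 0.1. In rRNA, silique differed from seed by at least 0.1 at 51 of 186 sites, from shoot and root at 51 each, and from flower at 22. In tRNA, over the 343 sites with a value in all 9 tissues, silique differed from root at 207 sites, from seed at 115 and from flower at 52. For seed, its 8 rRNA counts ran from 51 with silique to 75 with root, with flower at 52, and no tissue was nearest to seed by every measure. The median absolute difference of seed in rRNA was 0.046 with silique, 0.037 with flower, 0.0395 with stem and 0.077 with root, and r was 0.881 with silique, 0.896 with flower and 0.883 with root. In tRNA the 8 counts of seed ran from 115 with silique and 116 with cauline leaf to 178 with root. These pairs share the values of seed or of silique and are not independent.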

How the data were processed

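Total RNA of 9 tissues was profiled by BID-seq. The deposited values are Ψ fractions, which the authors made by pooling gapped and ungapped reads of both treated replicates of a tissue, aligned to TAIR10, and applying a calibration curve, and pass flags whose thresholds are not given in the sources used here. How the input libraries enter the fractions or the flags is not stated in those sources. Counts and depth were not used here, so no interval, detection floor or test was computed. The sites, lists and the threshold of 0.1 were chosen with earlier results of these data known.

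Listed rRNA positions were placed on RefSeq TAIR10.1 by the offset that put most sites on a T. It placed 147 of 147 nuclear sites (next best 60), 10 of 11 mitochondrial sites (next best 8) and all 16 chloroplast sites from position 3500 (next best 13). The 12 chloroplast sites below that were not placed, since 8 of them fell on a T. Of 144 tRNA names, 139 matched annotated tRNA genes by anticodon and amino acid, all of whose listed positions had to fall on a T, and a position or sequence was used where 80% of the matching genes shared it. An anticodon was accepted only where a T preceded it, so genes without that T could not be matched.

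Sites named were, per table and direction, the 8 largest differences among sites passed in at least 1 of both tissues with neither value at 0, up to 8 sites with 1 value at 0 and the other passed, and 4 sites the study singles out. Others named were chosen after their values were seen. Alternatives covered values of 0, pass flags, genome, threshold, mean, Spearman's rho, averaged tRNA names and window limits. No column of per-sample values was left unused. The tools were pandas 2.3.3, numpy 2.4.6 and matplotlib 3.10.9 under Python 3.11.15, and the scripts were tested on simulated data.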

Additional observations from a re-analysis of the deposited data

How the results depend on the processing

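The directions of the medians held under the alternatives run. The median difference in rRNA lay between 0.005 and 0.0364 and that in tRNA between -0.0728 and -0.012. Counts of sites depended on the setting. Among sites passed in both tissues, the counts of higher and lower sites were 13 and 2 in rRNA and 10 and 29 in tRNA, and r was 0.959 and 0.868. At a threshold of 0.05 they were 65 and 26 in rRNA and 40 and 137 in tRNA, and at 0.2 there were 18 higher rRNA sites and 12 higher and 49 lower tRNA sites. Without values of 0, lower tRNA sites numbered 53 and r in tRNA was 0.917. Over nuclear sites alone, lower sites numbered 5 in rRNA and 51 in tRNA. Of the tRNA windows, the T stem turned from -0.0055 to 0.208 with limits shifted down by 1 and with aligned positions, under each of which 2 of the 3 sites in it were the Trp site at listed position 64. No paired analysis was possible because the authors pooled the replicates of a tissue into 1 value. For the same reason no replicate could be left out, no outlier could be tested, and the precision of every fraction is unknown.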
